A study of Mus musculus with 6 samples.

Results

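Cyp2e1 encodes cytochrome P450 2E1, and its transcript was followed in brown adipose tissue (BAT), the fat depot that burns fuel to make heat, of KRAP-deficient and wild-type mice. It is 1 of 18193 genes with a probe set named here, and of 45037 probe sets on the array, 1 (1415994_at) was annotated to Cyp2e1 and to no other gene. The gene was chosen by its KO over WT ratio on these same arrays, so its signals and ratios are given as a description, with no test. RNA was measured in BAT of 3 littermate pairs, 1 array per animal, to ask which transcripts differ when KRAP, an actin-associated protein, is missing. In the KO animals an internal block of KRAP exons had been replaced by a neomycin resistance cassette in every cell of the body, and the WT animals were their wild-type littermates. All 6 animals were 32 weeks old, ate normal chow and were on a C57BL6/J background reached by backcrossing, and their sex is not given in the labels. The median intensity of an array was 16.5 to 20.4, and every signal below is a multiple of the median of its own array.

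The Cyp2e1 protein sits in the endoplasmic reticulum and oxidises small molecules such as ethanol, acetone and paracetamol, with electrons that arrive through cytochrome P450 reductase and cytochrome b5. It readily releases reactive oxygen, and it is best known from hepatocytes around the central vein, where fasting, ketone bodies and alcohol raise the enzyme and insulin lowers its transcript. Much of its control acts on the stability of the protein, which an array does not see.

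In the GRCm38.p6 assembly Cyp2e1 lies on the forward strand of chromosome 7, from 140763819 to 140774990, a span of 11172 bp. The 250 bases before its annotated start, at chr7:140763569-140763818, are shown because they hold the core promoter of the one gene described here. The sequence is that of RefSeq, 5′ to 3′, with a TATAAA motif in capitals.
Cyp2e1 promoter: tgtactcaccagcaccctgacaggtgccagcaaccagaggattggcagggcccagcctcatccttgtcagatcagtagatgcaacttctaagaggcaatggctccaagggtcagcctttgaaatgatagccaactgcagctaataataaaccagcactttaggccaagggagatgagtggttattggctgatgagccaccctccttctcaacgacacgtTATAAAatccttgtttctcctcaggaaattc
This TATAAA begins 31 bases before the start. On both strands, TATAAA was found in 12.4% of 32851 mouse windows of the same length. CCAAT was found on the reverse strand at 210 and 68 bases before the start and in 33.8% of the windows. These are matches of letters, and binding was not measured.

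The Cyp2e1 signal was high in every KO animal. It was 129.4 in KO 1, 108.3 in KO 2 and 148.7 in KO 3 times the array median. In the wild-type littermates it was 29.3 in WT 1, 18.3 in WT 2 and 26.7 in WT 3. The groups did not overlap, since the lowest KO animal, KO 2, was 3.69-fold above the highest WT animal, WT 1. The KO mean was 128.8 ± 20.2 (SD, n = 3), and the WT mean was 24.8 ± 5.76 (SD, n = 3). Among 11139 other genes tested, the groups also failed to overlap with KO higher in 493 (4.43%) and with KO lower in 877 (7.87%).

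Within littermate pairs the KO over WT ratio was 4.41 in pair 1, 5.92 in pair 2 and 5.58 in pair 3. On the log2 scale these ratios were 2.14, 2.57 and 2.48, with a mean of 2.40 and an SD of 0.225 over the 3 pairs, which is a mean fold of 5.26. The spread between animals of 1 genotype was small beside this. The highest KO signal was 1.37-fold the lowest, and the highest WT signal was 1.60-fold the lowest. Over all 9 pairings of a KO with a WT animal, the ratio ran from 3.69 to 8.13. In the intensity units of the files, before division by the array median, the KO animals gave 2319, 2172 and 2640 for Cyp2e1, and their WT littermates 489, 302 and 544. The pair ratios of these unscaled intensities were 4.74, 7.18 and 4.86.

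**Figure D1:**
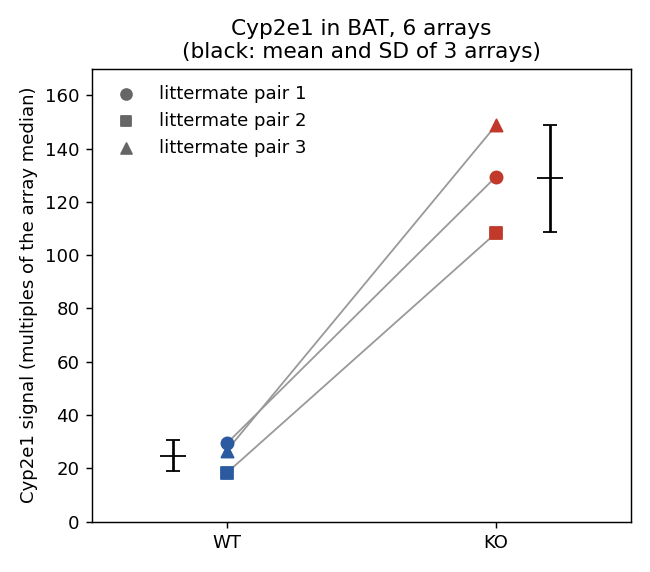
The signal of Cyp2e1 on each of 6 arrays, in multiples of the array median, with a grey line joining the WT and KO animal of each littermate pair and black bars for the mean and SD of 3 arrays. The 3 KO points lie between 108.3 and 148.7 and the 3 WT points between 18.3 and 29.3.

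The largest ratio and the lowest signal of Cyp2e1 both came from the pair that holds WT 2. That array stood apart in RNA quality. The 3′ to 5′ signal ratio of its beta-actin control probe sets was 3.80, against 1.91 to 2.58 on the other 5 arrays, and its 18S ribosomal RNA control (3′ probe set) read 1731 intensity units against 112 to 215. Without pair 2 the mean log2 difference of Cyp2e1 was 2.31, against 2.40 with all 3 pairs.

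The deleted gene, KRAP, is named Itprid2 on the array and has 1 probe set. Its signals were 47.0, 35.1 and 41.4 among the KO animals, against 55.3, 56.6 and 42.2 among their WT littermates. The log2 difference was -0.32 (95% confidence interval -0.83 to 0.20, limma adjusted p = 0.720). The sources used here do not say whether this probe set lies inside the deleted exons, so its signal does not check the genotype labels.

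Against the rest of the array, Cyp2e1 was set by the smallest of its 3 pair ratios, 4.41. Of 22356 probe sets with a mean signal above the array median, it came first by this measure. Since it was chosen for this ratio, the rank describes the choice. When 1 pair was left out it was at rank 3 without pair 1, 5 without pair 2 and 6 without pair 3. By mean log2 difference it was at rank 4. Among the 3774 probe sets with a mean signal above 20 it was at rank 1 by both measures.

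Within a single pair Cyp2e1 was not at the top. A higher ratio than that of Cyp2e1 was held by 118 of the 22356 probe sets in pair 1, by 135 in pair 2 and by 50 in pair 3. Among the 10556 probe sets with a mean signal above 5, these numbers were 4, 21 and 4. Since Cyp2e1 came first by the smallest ratio, each of those probe sets must have a ratio below 4.41 in at least 1 other pair. That restates the choice of the gene.

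Of the other 22355 probe sets, 123 (0.55%) were at least 1.5-fold higher in KO in all 3 pairs and 183 (0.819%) at least 1.5-fold lower. At 2-fold the numbers were 20 and 26, at 3-fold 1 and 7, and at 4-fold 0 and 2. With a mean signal above 20, where ratios scatter less, 0 of the other 3773 probe sets were 2-fold higher in all 3 pairs and 4 were 2-fold lower. With limma 0 of the other probe sets (0%) passed at an adjusted p under 0.05, while 1910 (8.54%) had an unadjusted p under 0.05, 761 of them higher in KO and 1149 lower. With the limma prior fitted to the intensity trend, 310 passed the adjusted test.

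**Figure D2:**
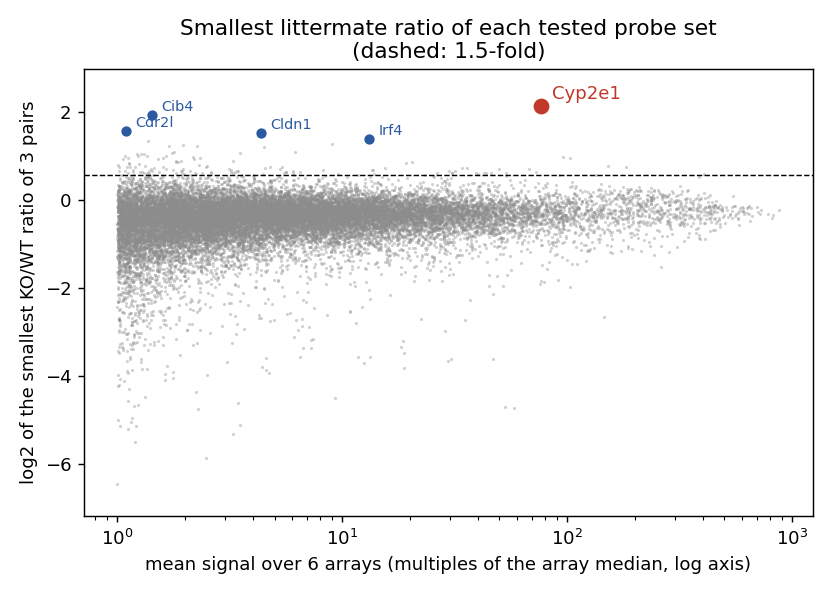
Each point is 1 of 22356 tested probe sets, with its mean signal over 6 arrays on a log axis and the log2 of the smallest of its 3 KO over WT pair ratios; the dashed line marks 1.5-fold. Cyp2e1, in red, lies at a smallest ratio of 4.41, and the next 4 named genes, in blue, lie at 3.86 and below.

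The 6 probe sets that followed Cyp2e1 in the order of the smallest ratio had mean signals of at most 20.2 in KO and 6.25 in WT. Cib4, a calcium and integrin binding family member, had ratios of 3.86, 6.22 and 8.50, with mean signals of 2.46 in KO and 0.396 in WT. Cdr2l followed with ratios of 6.84, 4.10 and 2.99. The WT means of both, 0.396 and 0.427, lay below the array median. Claudin 1 (Cldn1), a tight junction protein, was met with 2 probe sets, at ratios of 4.94, 4.14 and 2.89 and of 4.42, 2.54 and 5.84. Irf4, an interferon regulatory factor that acts in adipocytes on fasting and thermogenic genes, had ratios of 3.07, 2.65 and 5.03. The sixth was a probe set with no single gene name, at 4.47, 2.44 and 37.8.

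At the other end, the probe sets with the lowest largest ratio named Dio3os, Slc6a13, Prr32, Fads3, Lep and Ptgds. Dio3os, a transcript antisense to the deiodinase gene Dio3, had ratios of 0.124, 0.177 and 0.140. Prr32 had ratios of 0.255, 0.155 and 0.157. Leptin (Lep), the satiety hormone of adipocytes, had ratios of 0.306, 0.243 and 0.183. In size on the log2 scale the differences of Dio3os (-2.69), Slc6a13 (-2.52), Prr32 (-2.44) and Fads3 (-2.77) were larger than that of Cyp2e1, each but Prr32 with 2 signals under the floor of 0.25 that the fit sets, and none of the 6 passed the limma test (adjusted p from 0.117 to 0.256). These 6 genes and Cib4, Cdr2l, Cldn1 and Irf4 passed with the intensity trend and robust prior, 10 of 10. All 10 were picked by their ratios on these same arrays, so these passes are no separate support. Of the 22355 probe sets other than Cyp2e1, 310 passed with that prior. By absolute mean log2 difference Cyp2e1 was at rank 10 of 22356, and at rank 1 of the 3774 with a mean signal above 20.

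To see how far probe sets of like signal differ between the genotypes, the 4026 other probe sets whose WT mean lay within 2-fold of that of Cyp2e1 were used. Their median absolute log2 difference was 0.155 and the 99th percentile was 0.957, against 2.40 for Cyp2e1. The differences in this window ran from -2.19 to 1.57. Of these probe sets, 15 were 1.5-fold higher in all 3 pairs and 0 were 2-fold higher. The highest smallest ratio among them was 1.67. Since Cyp2e1 came first of all tested probe sets by this measure, none of them could lie above it. Its distance from this window thus describes the choice of the gene and is no test. Named after their values were seen, the genes closest to Cyp2e1 in this window were Selenbp1, with ratios of 1.67, 1.70 and 1.77, Acsm3, with 1.63, 1.97 and 1.75, and Gpx8, with 1.80, 1.63 and 2.09. The spread of Cyp2e1 between animals of 1 genotype was not unusual in this window. Its coefficient of variation was 15.7% in KO and 23.3% in WT, beside medians of 12.5% and 15.5%.

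Because Cyp2e1 is a gene of hepatocytes, markers of hepatocytes and of other cells that a piece of BAT can hold were set beside it. In bulk tissue, fewer cells of a type and less RNA per cell cannot be told apart. Of 19 hepatocyte markers 16 were measured, and their summed signal was 10.5 in KO 1, 8.81 in KO 2 and 77.3 in KO 3, against 7.60, 8.27 and 8.63 in their WT littermates. The sum was high in KO 3 alone. The pair ratio of the sum was 1.38, 1.06 and 8.95, while that of Cyp2e1 was 4.41, 5.92 and 5.58. Without pair 3 the mean log2 difference of Cyp2e1 was 2.35, against 2.40 with all 3 pairs.

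Single hepatocyte markers showed the same animal. Albumin (Alb), the main plasma protein of liver, was at 1.18 in KO 1, 1.06 in KO 2 and 28.5 in KO 3, against 0.772, 0.640 and 0.997 in their WT littermates. Transthyretin (Ttr), a plasma carrier of thyroid hormone, was at 14.7 in KO 3 and at 0.0136 to 0.0665 on the other 5 arrays. By contrast, Tdo2 was at 0.714 in KO 3 and 0.791 in WT 3, and Tat at 0.161 and 0.157. Of the 16 markers measured, 4 (Alb, Apoa1, Fgg and Hpd) had a ratio above 1 in all 3 pairs and 0 had a ratio below 1 in all 3. Over all other genes tested, 10.9% were higher and 19.7% lower in all 3 pairs. Apoa1 and Fgg were not tested, and the WT signals of Apoa1 were 0.0929 to 0.174. Hpd, an enzyme of tyrosine breakdown, was the one whose ratios were most even, at 2.80, 2.12 and 2.69. Its signal was 2.00, 2.16 and 3.39 in KO and 0.715, 1.02 and 1.26 in WT, with a log2 difference of 1.33 (limma adjusted p = 0.326). The part of hepatocyte RNA in the Cyp2e1 signal of KO 3 was not tested.

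Brown and white adipocyte markers differed in their pattern. All 10 brown adipocyte markers were measured, each by its probe set of highest signal, and their summed signal was 2663 to 3510 in KO and 2715 to 3490 in WT. At these probe sets 0 of 10 were higher or lower in all 3 pairs. Dio2 had ratios of 2.28, 0.963 and 3.77 there, and of 2.49, 1.81 and 2.81 at another probe set (log2 difference 1.22, limma adjusted p = 0.396). Other probe sets of Ppargc1a and Prdm16 were also higher in all 3 pairs, and another of Fabp4 was lower. Ucp1, the uncoupling protein of heat production, had a log2 difference of -0.20 (limma adjusted p = 0.850). The 10 measured of 11 white adipocyte markers summed to 599 to 697 in KO and 622 to 676 in WT, but most of that sum is adiponectin (Adipoq), at 511 to 628 in KO and 506 to 567 in WT. Of these 10 markers 2 were higher and 6 lower in all 3 pairs, beside 10.9% and 19.7% of all other genes tested. The median log2 ratio of the members was -0.43, -1.69 and -1.34 in pairs 1, 2 and 3. Among the lower ones were Lep (log2 difference -2.07), Sncg (-1.87), Mest (-1.67), Nnat (-1.65) and Npr3 (-1.42), with limma adjusted p from 0.211 to 0.403. Resistin (Retn), an adipocyte hormone, was among the higher ones, at 0.95 (limma adjusted p = 0.413). The 7 skeletal muscle markers summed to 38.4, 632 and 19.9 in KO and 85.4, 56.6 and 253 in WT, so that they varied between animals in no common direction. The 6 macrophage markers summed to 97.9 to 109 in KO and 79.7 to 111 in WT. No measured marker was at 0 on any array.

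**Figure D3:**
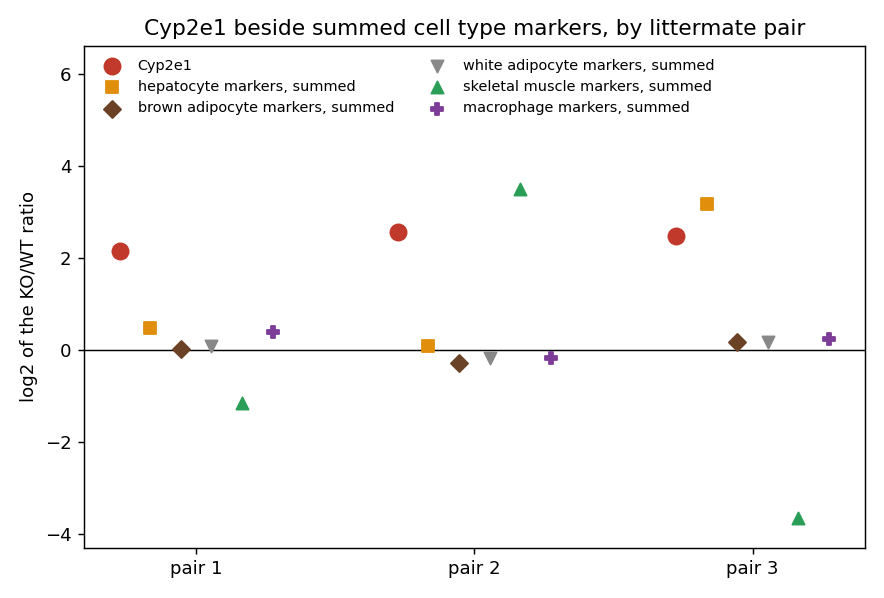
The log2 KO over WT ratio in each littermate pair of Cyp2e1 and of the summed signals of 5 cell type marker lists. Cyp2e1 lies between 2.14 and 2.57 in all 3 pairs, whereas the hepatocyte sum is raised in pair 3, at a ratio of 8.95, and the skeletal muscle sum changes direction between pairs.

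The relatives of Cyp2e1 were mostly dim in BAT. The other 34 genes of the Cyp2 family had 41 probe sets, of which 12, for 7 genes, passed the filter on low signals, and 22 lay below the array median on all 6 arrays. Of the 12 tested probe sets, 1 was higher and 2 were lower in all 3 pairs, beside 10.9% and 19.7% of all other genes tested. Cyp2d22 had 2 tested probe sets, at log2 differences of 0.42 and 0.58 (limma adjusted p = 0.666 and 0.491). Cyp2f2, which oxidises aromatic compounds in lung and liver, was at -0.73 (limma adjusted p = 0.452). Cyp2b10, a target of the xenobiotic receptor CAR, had ratios of 2.72, 0.843 and 1.47 at its probe set of highest signal. Over all other P450 genes, 28 of 97 probe sets, for 19 genes, were tested. Of these 28, 0 were 1.5-fold higher and 1 was 1.5-fold lower in all 3 pairs, beside 0.55% and 0.819% of all other probe sets tested.

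The nearest genes with a probe set on either side of Cyp2e1 on chromosome 7 gave low signals. Syce1, a meiosis gene that starts 2.24 kb beyond the end of Cyp2e1, was at 0.261 to 0.396 times the median on all 6 arrays and was not tested. Zfp941, 32.5 kb beyond it, was at 0.0206 to 0.652 and was not tested either. The ratios of Zfp941 were 11.3, 2.94 and 2.00, with all 6 signals below the median. On the other side, 5830411N06Rik, at 463 kb, had a log2 difference of -0.14 (limma adjusted p = 0.905), and Cd163l1, at 533 kb, was not tested because its mean was below the median. So 1 of these 4 neighbours could be tested.

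Genes of the pathway around Cyp2e1 were followed in 10 lists, of which 89 of 119 genes were tested. Of these 89 genes, 14 were higher and 12 lower in KO in all 3 pairs, with a median log2 difference of -0.03. Over the 11139 other genes tested, 1213 (10.9%) were higher and 2195 (19.7%) lower, with a median of -0.07. After quantile normalization these last numbers were 1868 and 2028. In the lists 0 genes passed the limma test after adjustment over all probe sets, while 3 higher (3.37%) and 6 lower ones (6.74%) had an unadjusted p under 0.05, beside 3.21% and 4.98% of the other genes. With 1 pair left out, 7 of the 10 list medians changed sign, so their directions are not firm.

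Partners that hand electrons to microsomal P450 enzymes had a list median of -0.23 over 6 genes, 1 higher and 2 lower in all 3 pairs. Cytochrome b5 (Cyb5a) was at 227, 203 and 235 in KO and 216, 238 and 196 in WT, and its ratios lay on both sides of 1. Cyb5b, its mitochondrial relative, had ratios of 0.562, 0.568 and 0.948 (log2 difference -0.57, limma adjusted p = 0.571). The reductase Cyb5r3 was at -0.54 (limma adjusted p = 0.624). Cytochrome P450 reductase (Por) was not analysed here. The 11 tested genes of heme, the cofactor that P450 enzymes need, had a median of -0.01, with 1 higher and 1 lower in all 3 pairs. Alas1, the rate-limiting enzyme of heme synthesis, was at 82.0, 117 and 122 in KO and 65.5, 136 and 134 in WT, and its direction differed between pairs. Heme oxygenase 1 (Hmox1) was at -0.34 (limma adjusted p = 0.790) and Cpox at 0.59 (limma adjusted p = 0.642).

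Other genes act on the substrates of Cyp2e1. In ethanol and aldehyde oxidation, 1 of 11 tested genes was higher and 2 lower in all 3 pairs, with a median of -0.12. Alcohol dehydrogenase 1 (Adh1) was at 76.9, 56.4 and 74.2 in KO and 69.6, 101.8 and 62.5 in WT. Aldh2, which clears acetaldehyde in mitochondria, and catalase (Cat) had log2 differences of -0.03 (0.034 on deposited signals) and 0.07 (limma adjusted p = 0.987 and 0.953). Another probe set of Cat was lower in all 3 pairs, at ratios of 0.815, 0.866 and 0.941 (log2 difference -0.20, limma adjusted p = 0.821). The acetyl-CoA synthetases lay on opposite sides of 0. Acss2, the cytosolic form, had ratios of 0.440, 0.592 and 0.818 (log2 difference -0.74, limma adjusted p = 0.486), and Acss1, the mitochondrial form, had 1.22, 1.36 and 1.42 (0.41, limma adjusted p = 0.619). Of 7 tested genes of ketone body and acetone metabolism 0 were higher and 1 was lower in all 3 pairs, with a median of -0.11. The lower one, the monocarboxylate transporter Slc16a1, was at -0.34 (limma adjusted p = 0.706).

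Among 6 tested regulators of Cyp2e1 transcription and protein turnover, 1 was higher and 1 lower in all 3 pairs, with a median of 0.10. Hnf4a, a nuclear receptor of hepatocytes, had ratios of 3.11, 1.16 and 0.896 at a signal near the array median. Ctnnb1, which encodes beta-catenin, was at -0.26 (limma adjusted p = 0.793), and Ppara, the fatty acid receptor, at 0.11 (limma adjusted p = 0.952). Of 4 tested genes that beta-catenin drives around the central vein together with Cyp2e1, 1 was higher in all 3 pairs and 0 lower, with a median of -0.09. Ornithine aminotransferase (Oat) had ratios of 1.25, 1.34 and 1.37, glutamine synthetase (Glul) had 0.889, 0.985 and 1.53, and Tbx3 had 1.08, 0.461 and 0.352. Another probe set of Glul was higher in all 3 pairs, at 1.18, 1.17 and 2.12 (log2 difference 0.52, limma adjusted p = 0.633).

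Detoxification and oxidant defence were mixed. Of 10 tested xenobiotic receptors and other phase I enzymes 2 were higher and 1 lower in all 3 pairs, with a median of 0.08. The lower one was epoxide hydrolase 1 (Ephx1), at -0.61 (limma adjusted p = 0.572), and the carboxylesterase Ces1d was at 0.32 (limma adjusted p = 0.707). Of 12 tested phase II enzymes 1 was higher and 2 lower, with a median of -0.10, and the glutathione transferase Gsta3 was at -0.89 (limma adjusted p = 0.546). Of 11 tested oxidant defence genes 1 was higher and 2 lower, with a median of -0.11. Gpx3, the plasma glutathione peroxidase, had ratios of 1.46, 1.67 and 1.45 (log2 difference 0.61, limma adjusted p = 0.486). Srxn1, which restores oxidised peroxiredoxins, had ratios of 0.581, 0.501 and 0.745 (-0.73, limma adjusted p = 0.452).

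The list with most members higher was that of genes known to be induced by fasting or repressed by insulin in fat. Of 11 tested members, 5 were higher and 0 lower in all 3 pairs, beside 10.9% and 19.7% of all other genes tested. The list median was 0.30, beside -0.07 over all other genes. The lists were chosen with earlier results of these data known, so the direction of this list is a description and was not tested. Irs2, the insulin receptor substrate that insulin represses, was at 6.24, 0.525 and 1.11 in KO and 3.34, 0.173 and 0.154 in WT. Its ratios were 1.87, 3.04 and 7.20, although the animals of pair 1 stood far above the others in both genotypes and WT 2 and WT 3 lay under the floor of 0.25. Klf15, a fasting-induced transcription factor, was at 9.91, 5.80 and 6.69 in KO and 4.31, 1.83 and 3.93 in WT, with ratios of 2.30, 3.17 and 1.70. Irs2 and Klf15 had log2 differences of 1.37 and 1.21 (both limma adjusted p = 0.396). Fbxo32, a ubiquitin ligase known from muscle wasting, had ratios of 1.27, 1.83 and 0.982 (log2 difference 0.39, limma adjusted p = 0.689). Pck1, of glyceroneogenesis, was at 0.36, Angptl4, an inhibitor of lipoprotein lipase, at 0.31, and the insulin receptor (Insr) at 0.22, with limma adjusted p = 0.663, 0.696 and 0.814. Each of these log2 differences was smaller than that of Cyp2e1, at 2.40, but Cyp2e1 was chosen for its large ratio.

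**Figure D4:**
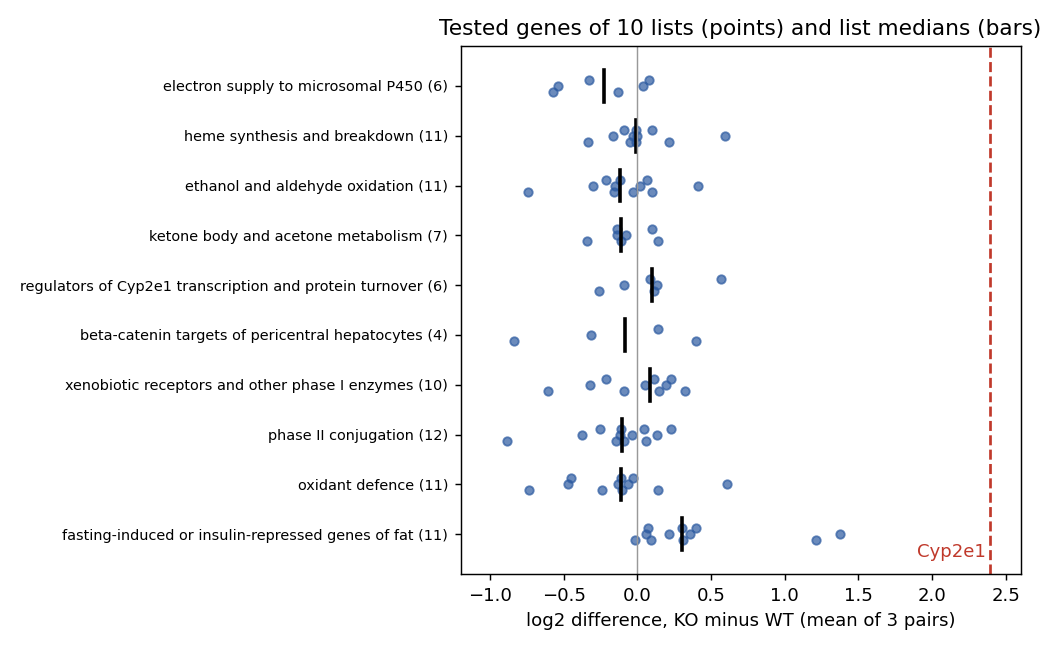
Each point is the log2 difference, KO minus WT, of 1 tested gene of the 10 lists, with the number of tested genes in brackets and black bars for list medians. The medians lie between -0.23 and 0.30, and no point reaches the dashed line at 2.40 of Cyp2e1, which was chosen for its large ratio.

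Lastly, the genes whose log2 signal was most like that of Cyp2e1 over the 6 arrays were named by Pearson's r, as a description. The 6 arrays share the contrast of genotypes, so a gene whose groups lie apart can have a strong positive or negative r with Cyp2e1 for that reason alone. Of 11139 genes, 96 had r above 0.9 and 171 had r below -0.9, and 14 ranked the 6 arrays in the order of Cyp2e1. The 6 with the highest r were Bcat2 (0.990), Itpka (0.987), Ildr2 (0.977), Rpl22 (0.972), Cib4 (0.971) and Inca1 (0.970). Bcat2, the mitochondrial aminotransferase of branched-chain amino acids, was at 4.57, 4.56 and 5.56 in KO and 2.18, 1.99 and 2.12 in WT, with ratios of 2.10, 2.29 and 2.63. Rpl22, a ribosomal protein gene, differed far less, at ratios of 1.23, 1.15 and 1.23, so that a high r says nothing of size. Cib4 was also next to Cyp2e1 by the smallest ratio. With the group means removed, r with Cyp2e1 was 0.729 for Bcat2, 0.489 for Cib4 and 0.922 for Ildr2. Like Cyp2e1, the genes Bcat2, Ildr2, Rpl22, Cib4 and Inca1 were lowest on WT 2, the array that stood apart in RNA quality. Itpka was lowest on WT 3. The part of that array in these r values was not tested.

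The 6 with the lowest r were A730020M07Rik (-0.989), Urm1 (-0.987), Anxa2 (-0.984), Acox2 (-0.984), Prr32 (-0.983) and Mis12 (-0.979). Annexin A2 (Anxa2), a membrane-binding protein, was at 110.4, 109.4 and 111.0 in KO and 180.7, 220.6 and 172.5 in WT. Acox2, the peroxisomal oxidase of branched chains, had ratios of 0.556, 0.352 and 0.362. Prr32 was also among the 6 lowest by the largest ratio. On WT 2 the signals of A730020M07Rik, Urm1, Anxa2, Acox2 and Mis12 were highest, and that of Prr32 was highest on WT 3. None of the 12 genes named by r passed the limma test (adjusted p from 0.158 to 0.730). With the intensity trend and robust prior 6 of them passed, namely Bcat2, Cib4, Inca1, Anxa2, Acox2 and Prr32. These 12 were picked by r with Cyp2e1, whose groups lie apart on these arrays, so these passes are no separate support.

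**Figure D5:**
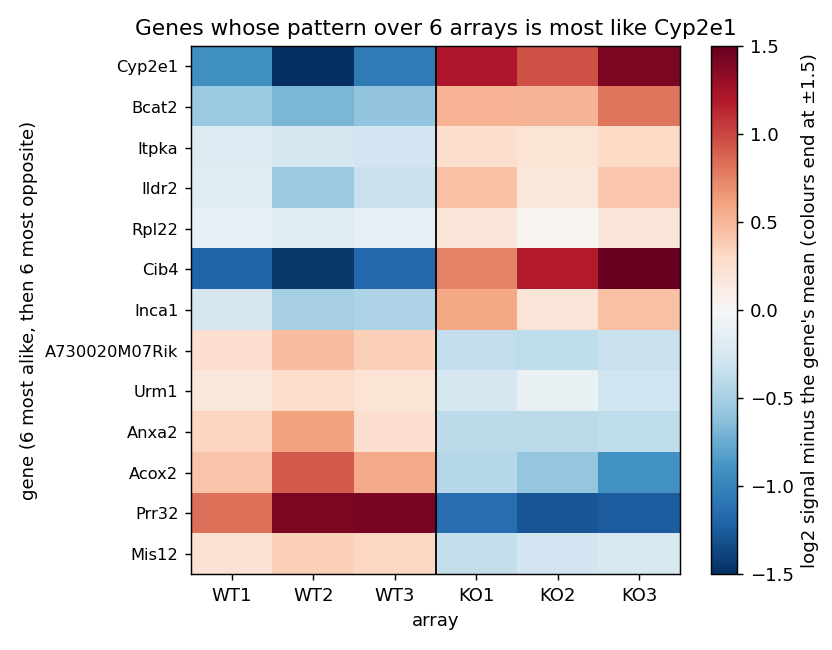
Log2 signal minus the mean of the gene over 6 arrays, for Cyp2e1, the 6 genes with the highest r and the 6 with the lowest r (rows) on each array (columns), with colours that end at ±1.5. Red rows in KO follow Cyp2e1, from Bcat2 at r = 0.990 to Inca1 at 0.970, and blue rows in KO run opposite to it.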

How the data were processed

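The authors purified total RNA from BAT of 3 KO and 3 WT mice and hybridised it as biotinylated cRNA, 1 Affymetrix mouse array per animal. The authors deposited 1 linear signal intensity per probe set from the GCOS software per the labels, its version and algorithm being not given in the sources used here. First, 64 control probe sets were set aside. Each intensity was divided by its array median, the per-chip step in the study's methods, whose later per-gene step, to the wild-type mean, was not applied. A floor of 0.25 was set before log2 was taken. Ratios in the text are of signals without this floor. The 22356 probe sets with a mean above 1 were tested.

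Gene names came from the platform annotation, in which 34945 probe sets carried 1 symbol, 932 carried several and 9160 had no entry. Names were used for the first kind alone, and 34741 symbols were matched to the GRCm38.p6 gene table. A gene stands by its probe set of highest mean signal, unless a probe set was picked by its ratio. Genes other than Cyp2e1 were tested by lmFit and eBayes of limma 3.58.1 (R 4.3.3) for the genotype, with the littermate pair as a block, at a Benjamini-Hochberg adjusted p of 0.05. The fit was tested on simulated data. The labels pair the littermates by number, and the correlation of paired animals, with group means removed, was 0.446, 0.0847 and 0.160. The n of 3 animals limits the precision of every value. The limma p-values set a mean difference against the spread of these animals within pairs, drawn toward a prior shared by the tested probe sets.

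The gene described and the lists were chosen with earlier results of these data known. Named were Cyp2e1, KRAP, the 6 probe sets next to Cyp2e1 by smallest ratio and the 6 lowest by largest ratio. So were the 6 genes with the highest and the 6 with the lowest r. The tested list members with the largest differences (up to 4 per list) were named as well. The rule also named Por, Alas1, Adh1, Aldh2, Cat, Hnf4a and Irs2, the 2 nearest genes with a probe set on each side, and markers. Another gene of that rule is not reported here. A planned choice of Cyp2 genes by protein identity was not made, as protein sequences were not used here, and the Cyp2 genes named were chosen after their values were seen, as were Angptl4, Cyb5a and Insr. Alternatives were filters, floors, scalings, a pseudocount, a robust prior fitted to the intensity trend, no pair block, averaging of all probe sets of a gene, and each pair left out.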

Additional observations from a re-analysis of the deposited data

How the results depend on the processing

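The log2 difference of Cyp2e1 stayed within the spread between pairs under every alternative run. It ran from 2.31 to 2.52 with 1 pair left out and from 2.35 to 2.46 otherwise. Changes of floor or filter could not move it, since its signals lay above all of them. Dropping the pair block could not either, as the pairs are complete. The rank of Cyp2e1 by smallest ratio stayed at 1 except with 1 pair left out, where it was 3 to 6. The count of other probe sets 1.5-fold higher in all pairs, 123, was 48 with a pseudocount of 1, 383 without a filter, 67 with a mean signal above 2, 40 above 5 (an alternative chosen after seeing the data), and 366 to 412 with 1 pair left out. The count that passed the adjusted limma test, 0, became 22 with a floor of 1, 122 with a pseudocount of 1, 39 with a mean signal above 2, 361 above 5 and 310 with an intensity trend, and it was 0 to 223 with 1 pair left out, the 223 without pair 1. Without the littermate pair as a block it was 0, the difference of Cyp2e1 was 2.40, and no call changed. The 10 genes named by the order of their ratios were picked from these same arrays. As designed 0 of them passed, and 10 passed with an intensity trend or a pseudocount of 1. With a floor of 1, 5 passed, and 8 passed without pair 1. With a mean signal above 2, 5 passed, and Cib4, Cdr2l, Dio3os, Slc6a13 and Fads3 lay under the filter and were not tested. Otherwise, why these counts moved was not tested.

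Of 552 values of 63 named genes under settings with all pairs, 549 kept their direction. The others were Alas1, at 0.049 on deposited signals and 0.044 after quantile normalization, and Aldh2, at 0.034 on deposited signals. With 1 pair left out, 173 of 183 did, and the log2 difference ran from -0.32 to 0.039 for 5830411N06Rik, -0.35 to 0.20 for Adh1, -0.038 to 0.18 for Adipoq, -0.18 to 0.093 for Alas1, -0.20 to 0.19 for Aldh2, -0.079 to 0.17 for Cyb5a, -0.096 to 0.30 for Glul, -0.27 to 0.55 for Ppara and -0.34 to 0.011 for Ucp1. The median over all lists, -0.03, was 0.03 on deposited signals and after quantile normalization, within the spread between pairs. Of 90 medians of single lists with all pairs kept, 88 stayed within that spread, and the other two were of the fasting list, from 0.30 to 0.22 both with a pseudocount of 1 and with averaged probe sets. With 1 pair left out, list medians ran from -0.37 to -0.087 for electron supply, -0.24 to -0.032 for oxidant defence and 0.27 to 0.29 for the fasting list. They changed sign for the other 7 lists: heme (-0.11 to 0.11), ethanol (-0.13 to 0.044), ketone bodies (-0.14 to 0.0011), regulators (-0.044 to 0.097), beta-catenin targets (-0.29 to 0.11), phase I (-0.076 to 0.26) and phase II (-0.17 to 0.046).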

Other observations

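Some genes under the filter on low signals also had large ratios. Adh4, an alcohol dehydrogenase of liver, was at 0.892, 0.470 and 0.798 times the array median in the KO animals, against 0.176, 0.135 and 0.145 in their WT littermates, with ratios of 5.07, 3.48 and 5.50. All 6 signals lay below the median and those of WT below the floor of 0.25, and of the 22681 probe sets left untested 182 had a ratio of at least 3 in all 3 pairs.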
